A study of Rattus norvegicus with 421 samples.

Results

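The acetamide time course comprised 12 of the 421 rat liver arrays of the series. Its members were all arrays titled AA at days 1, 3, 7 and 14, with 3 arrays per day. They were set against 18 vehicle arrays of the same dosing block (titled CMC_1D), of which 3, 6, 6 and 3 belonged to days 1, 3, 7 and 14. The AA livers came from male Wistar rats of the strain labelled Crl:WI[Gl/BRL/Han]IGS BR, 8 to 10 weeks old when they were assigned to dose groups, that received acetamide by gastric gavage at 3000 mg/kg per day in a carboxymethylcellulose (CMC) suspension. The vehicle livers came from rats of the same strain, sex and age that received CMC by the same route for the same number of days. Each dose group held 5 rats. The study profiled 3 of them, chosen because their livers showed at least some change under the microscope, so the treated arrays are not a random draw from the dosed animals. A pair of related small molecules of the same block, methylcarbamate (Mcarb, 400 mg/kg) and thioacetamide (TAA, 19.2 mg/kg), served for comparison and shared the vehicle arrays.

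Acetamide is a simple primary amide and a rodent liver carcinogen at high oral doses. A liver that meets a toxic dose of a chemical can switch on several gene programmes. Type I interferons act on a short promoter element and raise antiviral genes such as those of the Oas, Mx and Ifit families. Interferon gamma raises chemokines and the genes that process and present antigen, and resident macrophages (Kupffer cells) and recruited ones remove dying cells. Hepatocytes that re-enter the cell cycle express cyclins, replication factors and the mitotic machinery, whereas the quiescent liver is rich in enzymes of amino acid, lipid and drug metabolism.

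Levels are log2 values after robust multi-array averaging (RMA), 1 probe set per gene. A level can be set against another sample's level of the same gene but not against another gene's. A change is the mean of the AA arrays minus the mean of the vehicle arrays of the same day, given with its SE from limma. A gene was called where the Benjamini-Hochberg adjusted p of limma, over all 15866 probe sets, lay below 0.05 and the change was at least 1.5-fold. The tissue label held: the mean level of the 14 measured hepatocyte markers was 13.01 to 13.23 in AA arrays and 12.95 to 13.12 in vehicle arrays. Markers of exocrine pancreas (6.25 to 6.46 in AA arrays, 6.31 to 6.42 in vehicle arrays) and of muscle and fat (6.21 to 6.44 in AA arrays, 6.28 to 6.40 in vehicle arrays) stayed low in all 30 arrays, whereas single arrays elsewhere in the series reached 10.67 and 9.47. Vehicle arrays 1 and 2, 3 and 4, and 5 and 6 lay closer to each other than to the rest of their group at days 3 and 7 (SD of the differences over genes 0.135 to 0.163 within such pairs and 0.183 to 0.237 between them at day 3), which the labels do not explain. With each such pair averaged to 1 sample, the count at day 3 was 154 probe sets against 184, and at day 7 it was 751 against 785.

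More genes were called at day 7 than on any other day. At day 1, 188 of 15866 probe sets were called (1.18%), which came to 53 genes higher (0.509%) and 25 lower (0.24%) of the 10411 genes. Day 3 gave 184 probe sets (1.16%), or 61 genes higher (0.586%) and 19 lower (0.182%). At day 7 the count was 785 probe sets (4.95%), or 365 genes higher (3.51%) and 159 lower (1.53%). By day 14 it was 118 probe sets (0.744%), with 28 genes higher (0.269%) and 30 lower (0.288%). Most of what was called at day 7 was called on that day alone: 305 of the 365 higher genes and 135 of the 159 lower genes passed at no other day. Passing on 1 day alone does not show that a change differed between days, and days 3 and 7 had more vehicle arrays than days 1 and 14. Of the 58 genes called at day 14, 40 (69.0%) were also called at day 7 in the same direction and 0 in the opposite one. The changes at these 2 days had a correlation of 0.561 across all genes. Against the vehicle arrays of all CMC blocks 35, 77, 633 and 129 probe sets were called at the 4 days, so day 7 again had the most, and day 14 had more than days 1 and 3. In all, 600 genes were called on at least 1 day, 30 on 3 or more days and 14 on all 4 days.

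**Figure D1:**
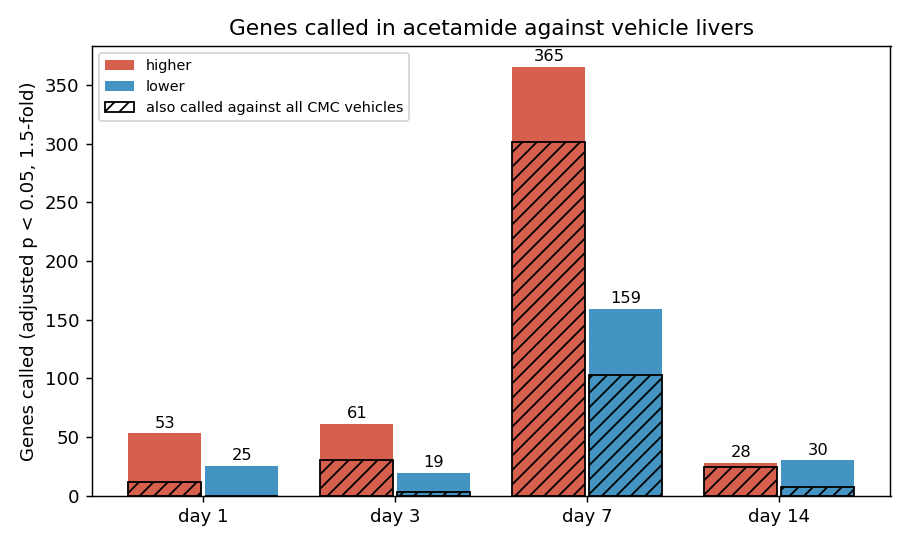
Number of genes called higher (red bars) and lower (blue bars) in AA livers than in vehicle livers at days 1, 3, 7 and 14, with hatching for those also called against the vehicle arrays of all CMC blocks (12, 30, 301 and 24 higher; 0, 3, 103 and 7 lower). The bars at day 7, 365 genes higher and 159 lower, stand far above those of the other days, of which none exceeds 61.

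The differences between days were tested directly, as the AA change at one day minus the AA change at another, so that drift in the vehicle livers is taken out. The change at day 7 differed from that at day 1 in 407 probe sets (2.57%), with 207 genes more positive at day 7 (1.99%) and 103 more negative (0.989%). From day 7 to day 14 the difference passed in 156 probe sets (0.983%), with 114 genes more negative at day 14 (1.09%) and 12 more positive (0.115%). Both steps were called in 63 of the 10411 genes in the direction of a rise and then a fall, and in 10 genes in the opposite direction. The 2 steps share the day 7 arrays with opposite sign. A chance deviation of the day 7 means thus favours both of these patterns, and the 2 counts are not independent evidence of a peak or a dip. A test of any difference among the 4 days, judged by its adjusted p alone with no limit on the fold, passed in 888 probe sets (5.6%). Between days 14 and 1 a single probe set passed (0.0063%), that of the chemokine Cxcl9, while 865 had an unadjusted p below 0.05 in limma. The counts of these differences depended on single rats: without AA day 7 array 1, 2 or 3 the count for day 7 minus day 1 was 652, 263 or 251, and that for day 14 minus day 7 was 379, 73 or 34.

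The 3 rats of a day did not respond equally. At day 7, arrays 2 and 3 had 267 and 258 genes at least 2-fold away from the vehicle mean, while array 1 had 99. At day 14, array 1 had 81 such genes and arrays 2 and 3 had 30 and 34. These rats also differed in the gene groups described next, so the means at days 7 and 14 stand for livers of unlike response. Whether fewer cells of a type or less RNA per cell lies behind a lower level cannot be told apart in these bulk samples.

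Type I interferon genes were higher in AA livers from day 3 on. Of the 43 listed genes 23 were measured, and 1, 11, 12 and 6 of them rose at days 1, 3, 7 and 14, while none fell. The single call at day 1 was lost without AA day 1 array 3 or vehicle day 1 array 3. The median change of the list was 0.20, 0.60, 0.59 and 0.34, against 0.01, 0.00, -0.02 and 0.02 over all genes. Usp18, a protease that takes ISG15 off proteins and damps the interferon receptor, stood at 9.36, 8.60 and 9.39 in AA livers at day 1, against 8.19, 8.28 and 8.13 in vehicle livers. At day 3 it reached 10.83, 10.12 and 10.07 in AA livers, against 8.45, 8.62 and 8.95 (lowest, median and highest) in vehicle livers. At day 7 it stood at 11.26, 10.26 and 11.47 in AA livers, against 8.41, 8.96 and 9.08 (lowest, median and highest) in vehicle livers. No AA array overlapped a vehicle array of Usp18 on these days or at day 14, where AA livers held 10.51, 11.14 and 11.12 and vehicle livers 8.90, 8.62 and 8.68. Its change was 0.91 ± 0.26 (adjusted p 0.0135), 1.71 ± 0.22 (3.06e-10), 2.17 ± 0.22 (1.05e-16) and 2.19 ± 0.26 (1.01e-11), and the change at day 7 exceeded that at day 1 by 1.25 ± 0.34 (adjusted p 0.0103).

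Oas1a, which makes the 2-5A messenger that activates RNase L, had no called change at day 1, where AA livers held 8.01, 7.66 and 8.60 and vehicle livers 7.43, 7.43 and 7.66. It stood at 10.02, 9.77 and 9.14 in AA livers at day 3, against 7.84, 7.93 and 8.23 (lowest, median and highest) in vehicle livers. At day 7 the AA livers held 10.68, 9.52 and 10.84 and the vehicle livers 7.29, 8.16 and 8.27 (lowest, median and highest). The groups did not overlap from day 3 on, and the change was 1.66 ± 0.29 at day 3 (adjusted p 4.57e-06) and 2.42 ± 0.29 at day 7 (adjusted p 4.33e-13). Irf7, the factor that amplifies interferon production, followed with 10.39, 10.36 and 9.38 in AA livers at day 3 against 8.55 to 8.89 in vehicle livers, and 10.87, 10.45 and 11.66 at day 7 against 8.54 to 9.06. Its change was 1.31 ± 0.21 (adjusted p 1.06e-06) at day 3 and 2.22 ± 0.21 (adjusted p 2.65e-18) at day 7, and the step between days 1 and 7 was 1.75 ± 0.33 (adjusted p 6.89e-05). At day 1 its 3 AA arrays already lay above the 3 vehicle arrays, but the change of 0.47 ± 0.25 was not called (adjusted p 0.303).

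The Mx genes, dynamin-like antiviral GTPases, showed how unevenly the rats responded. Mx2 stood at 7.93, 5.34 and 7.44 in AA livers at day 3, against 5.29, 5.42 and 5.71 (lowest, median and highest) in vehicle livers, so array 2 lay at the vehicle level. At day 7 all 3 AA livers were far above, with 8.79, 7.30 and 7.85 against 5.12 to 5.72, a change of 2.63 ± 0.29 (adjusted p 1.05e-14). At day 14 they held 6.64, 8.20 and 5.57 against 5.89, 5.16 and 5.40 in vehicle livers, and the groups overlapped. Mx1 changed by 1.20 ± 0.15 at day 3 (adjusted p 3.02e-10) and 1.57 ± 0.15 at day 7 (adjusted p 9.18e-18), and its change at day 14 differed from that at day 7 by -1.07 ± 0.24 (adjusted p 0.0045). Rsad2 (viperin), which blocks viral replication, changed by 1.44 ± 0.26 at day 7, and the difference of 0.02 ± 0.39 between day 14 and day 7 was not called (adjusted p 0.982). Ifit1, which binds foreign RNA caps, had no called change at day 7, with 7.70, 8.45 and 7.43 in AA livers against 7.77 to 7.99 in vehicle livers (-0.02 ± 0.21, adjusted p 0.949), and at day 14 it held 8.88, 8.79 and 9.07 in AA livers against 7.68, 7.79 and 7.72 in vehicle livers. The difference of Ifit1 between these days was 1.21 ± 0.32 (adjusted p 0.0246). It was the 1 list member whose change was called higher at day 14 than at day 7, while those of 2 members were called lower. Without AA day 3 array 1, the count of the list at day 3 was 6 in place of 11.

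The promoters of 3 of these genes are shown because they carry the element through which type I interferons act. The window searched ran from 250 bases before to 50 after the start of each RefSeq gene (rat build GRCr8), on both strands, for an interferon-stimulated response element, written as GAAA, then any 2 bases, then GAAA again. It was present in 1034 of 27457 promoters (3.77%), in 12 of the 17 promoters found for the type I list (70.6%), in 10 of 21 of the interferon gamma and antigen presentation list (47.6%) and in 0 of 37 of the cell cycle list. A match describes the letters and does not show that a factor binds there. The 200 bases upstream of each start are given 5′ to 3′ on the gene's strand, with capitals for the element or its reverse complement.
Oas1a promoter, chr12:41330266-41330465 (plus strand): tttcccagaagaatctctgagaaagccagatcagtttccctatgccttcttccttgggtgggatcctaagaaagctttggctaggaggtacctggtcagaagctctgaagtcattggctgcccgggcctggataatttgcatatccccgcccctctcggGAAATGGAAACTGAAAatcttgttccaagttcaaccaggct
Irf7 promoter, chr1:205800024-205800223 (minus strand): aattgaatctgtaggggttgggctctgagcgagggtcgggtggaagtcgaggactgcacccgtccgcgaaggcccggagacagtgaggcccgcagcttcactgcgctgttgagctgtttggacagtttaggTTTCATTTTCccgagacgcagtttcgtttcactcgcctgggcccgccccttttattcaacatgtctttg
Rsad2 promoter, chr6:48788121-48788320 (minus strand): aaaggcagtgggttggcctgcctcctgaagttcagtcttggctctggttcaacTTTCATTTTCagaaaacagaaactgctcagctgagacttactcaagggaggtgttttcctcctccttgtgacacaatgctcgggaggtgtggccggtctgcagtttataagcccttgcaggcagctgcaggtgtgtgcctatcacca
In the Oas1a promoter 2 copies of the element overlap, and Irf7 and Rsad2 hold 1 copy each in the stretch shown.

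**Figure D2:**
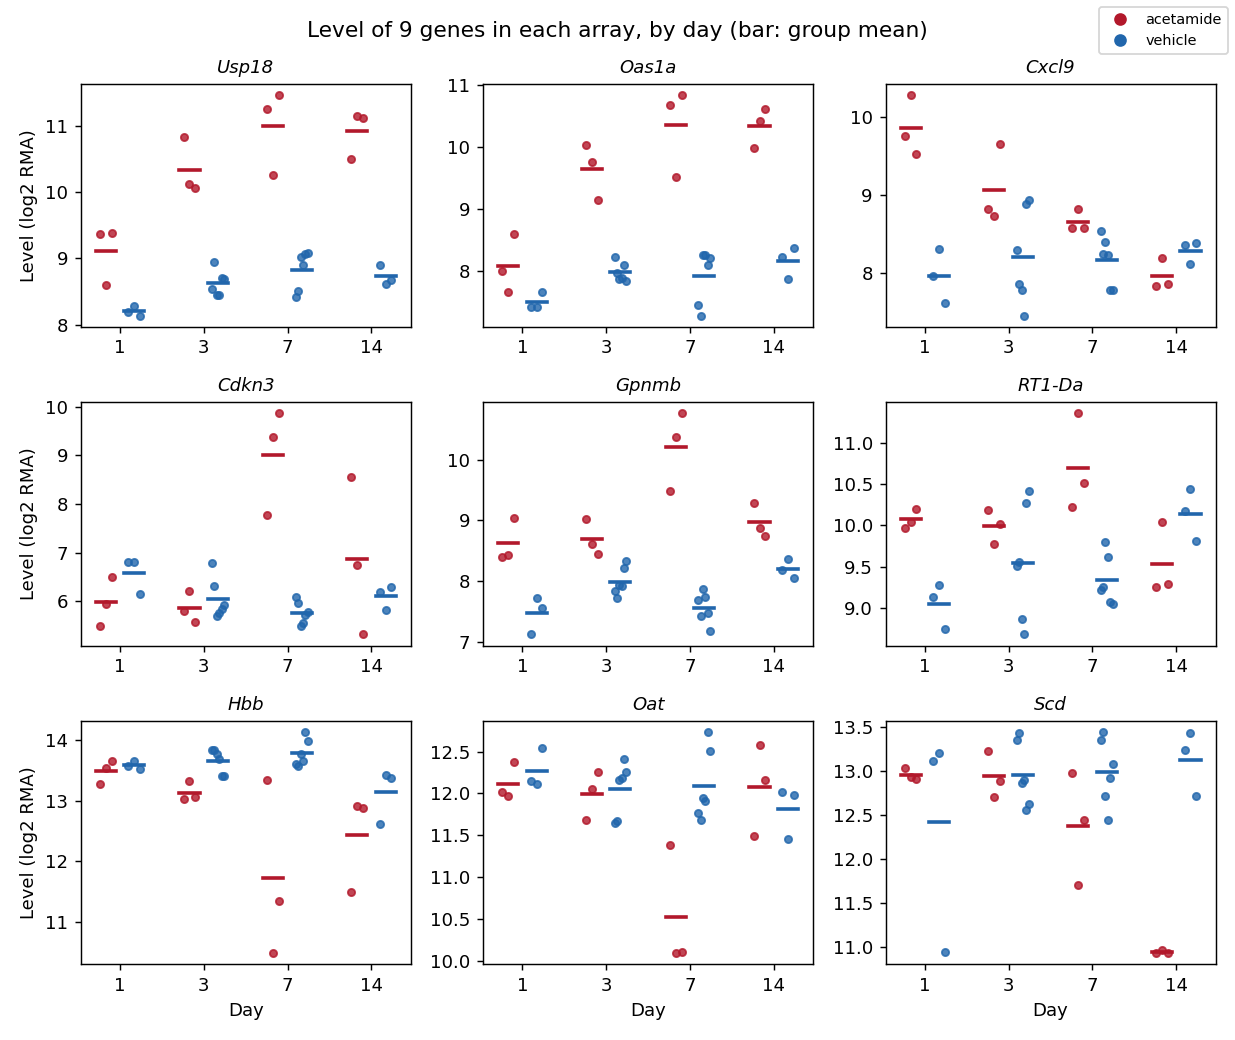
Log2 RMA level of 9 genes in each array at days 1, 3, 7 and 14, with AA arrays left of the vehicle arrays of the same day and a bar at each group mean. Usp18 and Oas1a stay high in AA livers to day 14, Cxcl9 is highest at day 1, Cdkn3, Gpnmb and RT1-Da peak at day 7, and Hbb and Oat dip at day 7.

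Chemokine and antigen presentation genes had their highest count at day 7. Of the 31 listed genes of the interferon gamma and antigen presentation group 23 were measured, and 5, 2, 12 and 0 of them rose at days 1, 3, 7 and 14, with list medians of 0.25, 0.23, 0.70 and 0.09. Over all genes 0.509%, 0.586%, 3.51% and 0.269% rose at these days. The 5 at day 1 were 3 without AA day 1 array 2 or vehicle day 1 array 1 and 2 without vehicle day 1 array 3, against all CMC vehicle arrays or in a fit of the compared groups only, and the 2 at day 3 were 1 without AA day 3 array 3 or vehicle day 3 array 3 or 4. Cxcl9, a chemokine that draws T cells, was highest at the start, with 9.76, 10.29 and 9.53 in AA livers at day 1 against 7.96, 8.31 and 7.62 in vehicle livers. At day 3 it stood at 8.82, 8.74 and 9.66 in AA livers and at 7.46, 8.08 and 8.94 (lowest, median and highest) in vehicle livers, where the groups overlapped. At day 14 the AA livers held 7.83, 8.19 and 7.86 and the vehicle livers 8.36, 8.11 and 8.39. The change was 1.89 ± 0.31 at day 1 (adjusted p 1.16e-06) and 0.87 ± 0.27 at day 3 (adjusted p 0.0223), and neither later day was called. Cxcl9 was the gene whose change at day 14 differed from that at day 1, by -2.22 ± 0.44 (adjusted p 0.0117), a call that was lost without AA day 1 array 2, AA day 14 array 1 or 3, vehicle day 1 array 3, or vehicle day 14 array 1 or 3.

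Cxcl10, a chemokine of the same receptor, rose at days 1, 3 and 7 by 0.77 ± 0.17, 0.72 ± 0.14 and 1.19 ± 0.14 (adjusted p 0.000456, 0.000115 and 9.9e-13). RT1-Da, the class II alpha chain of the rat major histocompatibility complex, stood at 10.23, 11.36 and 10.52 in AA livers at day 7, against 9.05, 9.23 and 9.79 (lowest, median and highest) in vehicle livers. At day 14 the order was turned, with 9.25, 10.05 and 9.29 in AA livers and 10.17, 10.45 and 9.81 in vehicle livers, and the groups overlapped. The change was 1.37 ± 0.29 at day 7 (adjusted p 4.56e-05) and -0.62 ± 0.33 at day 14 (adjusted p 0.273), and the difference between these days was -1.98 ± 0.44 (adjusted p 0.0045). Cd74, the class II invariant chain, had a change of 1.28 ± 0.25 at day 7 (adjusted p 1.59e-05) and a difference of -1.54 ± 0.39 from day 7 to day 14 (adjusted p 0.0164). The immunoproteasome subunits Psmb9 and Psmb8 rose by 1.48 ± 0.23 and 0.72 at day 7, as did the peptide transporter Tap1 by 0.63 and Tapbp by 0.72. Vehicle arrays 5 and 6 at day 3 were high in class II genes (RT1-Da at 10.27 and 10.41, above the AA range of 9.77 to 10.18), and the count of the list at day 3 was 2 without array 5, without array 6 and with vehicle arrays 1 to 3 only, as with all 6.

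Macrophage markers likewise had their highest count at day 7. Of 24 listed genes 15 were measured, and 8, 1, 11 and 0 rose at days 1, 3, 7 and 14, with medians of 0.70, 0.43, 1.27 and 0.31. The summed level of the list as a mean per array ran from 8.96 to 10.08 in AA livers and from 8.48 to 9.30 in vehicle livers. Gpnmb, a glycoprotein of lipid-laden and phagocytosing macrophages, held 8.40, 8.44 and 9.05 in AA livers at day 1 against 7.13, 7.73 and 7.57 in vehicle livers. At day 7 it held 9.48, 10.37 and 10.76 in AA livers against 7.19, 7.59 and 7.87 (lowest, median and highest) in vehicle livers. The arrays did not overlap on any of the 4 days, and the change was 1.15 ± 0.33 at day 1 (adjusted p 0.0154), 2.63 ± 0.28 at day 7 (adjusted p 2.48e-15) and 0.77 ± 0.33 at day 14 (adjusted p 0.148). The call at day 1 was lost without AA day 1 array 3 (0.94, adjusted p 0.135) or vehicle day 1 array 1 (0.98, adjusted p 0.129). C1qb, a chain of complement C1q that Kupffer cells make, rose by 0.76 ± 0.22 at day 1 and by 1.57 ± 0.19 at day 7 (adjusted p 0.0198 and 1.39e-12). Others called at day 7 were Cd68 (1.55), a lysosomal marker, Clec4f (1.06), a Kupffer cell lectin, the receptor Csf1r (1.10) and the protease Ctss (1.32). The difference from day 7 to day 14 was called lower in 9 of the 15.

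The early counts of macrophage markers changed with single arrays. Without AA day 1 array 3 or vehicle day 1 array 1 the count at day 1 was 1 in place of 8, without AA day 1 array 2 it was 3, without vehicle day 1 array 3 it was 5, and against the vehicle arrays of all CMC blocks it was 1. The count of 1 at day 3 was 4 or 3 without vehicle day 3 array 5 or 6. Against all CMC vehicle arrays the count at day 7 was 11 and that at day 14 was 8 in place of 0. Of the markers of lymphocytes and neutrophils 0 of 17 were called at any day, with a mean level of 6.21 to 6.40 in AA arrays and 6.15 to 6.30 in vehicle arrays. Over all genes 3.51% were called higher and 1.53% lower at day 7, and fewer on the other days. A count of 0 of 17 lies near that share and does not show that these cells were unchanged.

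The cell cycle genes were called at day 7 alone. Of 60 listed genes 44 were measured, and 0, 0, 31 and 0 of them rose at days 1, 3, 7 and 14, with medians of -0.11, 0.01, 0.93 and 0.26. Cdkn3, a phosphatase that acts on cyclin-dependent kinases and is expressed in dividing cells, stood at 5.79, 6.20 and 5.56 in AA livers at day 3, against 5.69, 5.88 and 6.79 (lowest, median and highest) in vehicle livers. At day 7 it stood at 7.78, 9.38 and 9.87 in AA livers, against 5.49, 5.75 and 6.10 (lowest, median and highest) in vehicle livers, with array 1 the lowest of the 3 AA livers yet clear of every vehicle array. At day 14 the AA livers spread over 8.55, 6.74 and 5.31, from above to below the vehicle livers at 6.18, 5.82 and 6.30. The change of Cdkn3 was 3.24 ± 0.37 at day 7 (adjusted p 1.01e-13), 3.86 ± 0.57 above that at day 1 (adjusted p 2.64e-07), and the difference from day 7 to day 14 was -2.48 ± 0.57 (adjusted p 0.00701).

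Ccnb2, the B-type cyclin of mitotic entry, held 8.08, 9.33 and 9.92 in AA livers at day 7 against 6.40, 6.65 and 6.95 (lowest, median and highest) in vehicle livers, a change of 2.42 ± 0.29 (adjusted p 5.81e-13). Its kinase partner Cdk1 held 7.92, 8.73 and 9.57 in AA livers against 6.18, 6.85 and 7.20 (lowest, median and highest) in vehicle livers, a change of 1.96 ± 0.28 (adjusted p 2.62e-09). Both again showed array 1 as the lowest AA liver at day 7 and as the highest at day 14, where Ccnb2 was 8.62, 7.46 and 6.31 in AA livers and 6.77, 6.83 and 7.01 in vehicle livers. The called members included Ccnd1 (1.65), the G1 cyclin, Pcna (1.04), Mcm6 (1.38) and Rrm1 (1.03) of DNA replication, Top2a (1.27) and Mki67 (1.44) of S to M phase, and Aurka (1.57), Ube2c (1.60), Racgap1 (2.09) and Ccnb1 (2.03) of mitosis. Stmn1, a tubulin-binding protein of the list, changed by 2.31 ± 0.30 at day 7, and Spc24, a kinetochore protein outside it, by 2.22 ± 0.25. By the mean level of the list, AA day 7 arrays 3, 2 and 1 ranked 1, 8 and 41 and AA day 14 array 1 ranked 15 among the 421 arrays of the series. The difference between days 7 and 1 was called higher in 34 of the 44 (median 1.02), and that between days 14 and 7 lower in 17 (median -0.72). Leaving out AA day 7 array 1 raised the count at day 7 to 40, and leaving out AA day 14 array 2 or 3 raised that at day 14 from 0 to 1 or 7.

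Promoters of 2 of these genes are shown for contrast with the interferon genes. TTTGAA, the core of the cell cycle genes homology region through which the DREAM and MuvB complexes time gene expression, was searched in the same windows and on both strands after these values were seen. It was present in 4962 of 27457 promoters (18.1%), in 16 of the 37 promoters found for the cell cycle list (43.2%) and in 1 of 17 of the type I interferon list (5.88%). Capitals mark the element, and as a 6-base word it is common, so a match is a description only.
Cdk1 promoter, chr20:19265093-19265292 (plus strand): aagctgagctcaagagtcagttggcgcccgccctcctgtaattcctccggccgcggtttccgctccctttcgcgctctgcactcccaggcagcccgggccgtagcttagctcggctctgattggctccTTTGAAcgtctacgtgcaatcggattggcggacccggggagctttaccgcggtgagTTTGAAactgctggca
Ccnb2 promoter, chr8:79981659-79981858 (minus strand): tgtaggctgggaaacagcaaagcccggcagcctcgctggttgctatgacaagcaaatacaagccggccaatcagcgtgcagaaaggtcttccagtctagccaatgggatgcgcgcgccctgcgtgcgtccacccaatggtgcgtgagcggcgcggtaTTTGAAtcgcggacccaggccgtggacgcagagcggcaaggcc

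**Figure D3:**
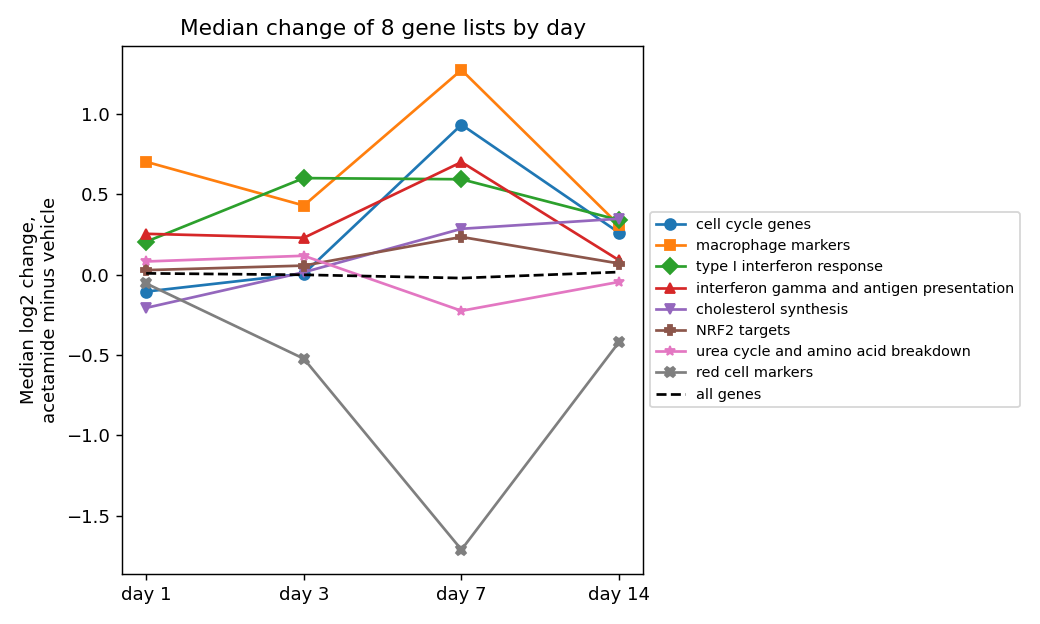
Median log2 change, AA minus vehicle, over the measured members of 8 gene lists at days 1, 3, 7 and 14, with the median of all genes as a dashed line. The cell cycle, macrophage, and interferon gamma and antigen presentation lists peak at day 7 (0.93, 1.27 and 0.70), the type I interferon list is near its highest from day 3 (0.60), and the red cell list is lowest at day 7 (-1.71).

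Targets of p53 and of the oxidant sensor NRF2 had their highest counts at day 7. Of 14 measured p53 targets 1, 0, 4 and 0 rose at the 4 days. Over all genes 0.509%, 0.586%, 3.51% and 0.269% were called higher at these days, so day 7 was the highest for genes in general too. Mdm2, the ligase that degrades p53, stood at 8.83, 8.51 and 8.93 in AA livers at day 7, against 6.93, 7.16 and 7.33 (lowest, median and highest) in vehicle livers. That change of 1.59 ± 0.16 (adjusted p 4.21e-17) was followed at day 14 by a difference of -1.17 ± 0.25 from day 7 (adjusted p 0.0022). The others were Gadd45a (1.57 ± 0.39), Ccng1 (0.94 ± 0.15) and Cdkn1a (0.93), which act in growth arrest and repair. Of 27 measured NRF2 targets 0, 1, 6 and 0 rose at the 4 days. The 1 at day 3 was Akr7a3, an aflatoxin aldehyde reductase (1.15 ± 0.28, adjusted p 0.00181). The 6 at day 7 were the glutathione transferase Gsta3 (2.01 ± 0.44), Ephx1 (1.28), an epoxide hydrolase, Hmox1 (0.97), which degrades haem, Akr7a3 again (0.92), and Gclm (0.82) and Srxn1 (0.83) of thiol chemistry.

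Aldh1a1, a retinal and aldehyde dehydrogenase, had one of the largest rises at day 7. It held 11.28, 11.91 and 11.42 in AA livers, against 8.36, 8.62 and 9.11 (lowest, median and highest) in vehicle livers, a change of 2.86 ± 0.40 (adjusted p 8.46e-10). At days 1 and 3 the same gene had been the lower of the pair in mean level, by -0.80 ± 0.47 and -0.68 ± 0.40 (adjusted p 0.375 and 0.317), which was not called, and the step from day 1 to day 7 was 3.65 ± 0.62 (adjusted p 8.88e-06). At day 14 it held 10.81, 10.48 and 10.15 in AA livers and 9.45, 8.16 and 8.70 in vehicle livers. Cyp2c12, the steroid hydroxylase typical of the female rat liver, held 10.50, 11.04 and 11.90 in AA livers at day 7 against 8.58, 9.02 and 9.21 (lowest, median and highest) in vehicle livers, a change of 2.17 ± 0.42 (adjusted p 8.88e-06). All the rats were male. Over all days, the 10 measured female-biased liver genes had a mean level of 7.22 to 7.62 in AA arrays and 7.19 to 8.10 in vehicle arrays. The 11 measured male-biased genes had 12.22 to 12.99 in AA arrays and 12.61 to 12.93 in vehicle arrays. At day 7 alone, AA arrays 1, 2 and 3 held 7.623, 7.412 and 7.379 in the female-biased list and 12.651, 12.215 and 12.483 in the male-biased list. In the male-biased list arrays 2 and 3 thus lay below every vehicle array of the block. A general shift towards the female pattern was not tested.

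The 159 genes that fell at day 7 included some of amino acid breakdown and of red cells. Of 28 measured genes of the urea cycle and amino acid breakdown, 0, 0, 9 and 0 fell at the 4 days, and 1 rose at day 3, the kynurenine pathway enzyme Acmsd (1.01 ± 0.23, adjusted p 0.00106). Oat, ornithine aminotransferase, held 11.38, 10.09 and 10.11 in AA livers at day 7 against 11.68, 11.93 and 12.73 (lowest, median and highest) in vehicle livers. The groups did not overlap, array 1 again lay nearest to the vehicle livers, and the change was -1.56 ± 0.29 (adjusted p 3.07e-06). By day 14 AA livers held 11.49, 12.58 and 12.16 and vehicle livers 12.02, 11.46 and 11.98, and the difference of 1.82 ± 0.44 from day 7 was the largest rise among the genes called in that comparison (adjusted p 0.0113). Sds, serine dehydratase, changed by -1.37 ± 0.37 at day 7 (adjusted p 0.00203). The list's other falls at day 7 were Prodh (-1.38) and Gls2 (-1.07) of proline and glutamine use, Kmo (-0.87) of the kynurenine pathway, Gpt (-0.71), Hal (-0.66), Agxt (-0.65) and Aass (-0.62).

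Inmt, a methyltransferase of indoleamines and other amines, had the deepest fall at day 7, with 9.95, 7.42 and 7.70 in AA livers against 10.20, 10.62 and 10.68 (lowest, median and highest) in vehicle livers. Its change was -2.14 ± 0.44 (adjusted p 2.86e-05), and arrays 2 and 3 carried it. At day 14 the AA livers held 9.34, 10.89 and 11.24 and overlapped the vehicle livers at 11.16, 10.89 and 10.79. Hbb, the beta chain of haemoglobin, held 13.35, 10.48 and 11.34 in AA livers at day 7 against 13.57, 13.72 and 14.13 (lowest, median and highest) in vehicle livers, a change of -2.07 ± 0.27 (adjusted p 4.89e-11). Alas2, the haem synthesis enzyme of red cell precursors, held 9.59, 7.59 and 7.60 in AA livers against 9.78, 10.18 and 10.88 (lowest, median and highest), a change of -2.01 ± 0.32 (adjusted p 3.32e-08). The fall of both lay in arrays 2 and 3, the same rats that were high in cell cycle genes. The 5 measured red cell markers had a mean level of 8.35 to 10.14 over the AA arrays and 9.24 to 10.41 over the vehicle arrays. Of them 3 were called lower at day 7 and 0 at day 14, where 1.53% and 0.288% of all genes were lower. AA day 14 array 1 stood at 8.70, below every vehicle array. Against the vehicle arrays of all CMC blocks the count at day 14 was 3 in place of 0. How much blood each liver sample held was not tested.

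Several lipid and sugar genes were called at days 7 or 14. Scd, the desaturase that makes oleate, had no called change up to day 7. At day 14 it held 10.93, 10.97 and 10.93 in AA livers against 13.24, 13.43 and 12.71 in vehicle livers, a change of -2.18 ± 0.71 (adjusted p 0.0465). The 3 rats agreed closely, yet the call was lost when any 1 of the 6 arrays was left out (adjusted p 0.0888 to 0.125), and a vehicle liver of day 1 held a like level of 10.94. Pklr, the liver pyruvate kinase, held 9.88, 10.20 and 10.44 in AA livers at day 14 against 11.33, 11.59 and 11.16 in vehicle livers, and at day 7 its change was already -0.99 ± 0.25 (adjusted p 0.00097). The call of Pklr at day 14 was lost without AA day 14 array 1 (-1.04, adjusted p 0.0611). Apoa4, an apolipoprotein of liver and gut, held 11.04, 9.55 and 10.79 in AA livers at day 7 against 11.99, 12.04 and 12.51 (lowest, median and highest) in vehicle livers, a change of -1.67 ± 0.30 (adjusted p 1.05e-06). Sqle, an early oxidation step of cholesterol synthesis, rose by 1.17 ± 0.30 at day 7 and 1.22 ± 0.34 at day 14 (adjusted p 0.000905 and 0.0181). The call of Sqle at day 14 was lost without AA day 14 array 1 or 2 (adjusted p 0.0985 and 0.0716) or vehicle day 14 array 1 or 2 (0.0645 and 0.0779), and 2 and 1 of the 18 measured genes of its list were called on these days. Of 34 measured PPARA targets 6 rose at day 7, where 3.51% of all genes did, among them Cd36 (0.90), a fatty acid carrier, and Vnn1 (0.83), a pantetheinase. The mean level of that list was 10.095 to 10.266 in AA livers at day 7 and 9.942 to 10.077 in vehicle livers. A response of PPARA itself was not tested.

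Genes outside these groups also fell at day 7. Socs2, a brake on growth hormone signalling, changed by -1.64 ± 0.51 (adjusted p 0.00881), a call lost without AA day 7 array 1 (-1.10, adjusted p 0.16). Obp3 changed by -1.45 ± 0.43 (adjusted p 0.0053), a call lost without AA day 7 array 2 (-0.87, adjusted p 0.207), and its difference from day 1 was -2.06 ± 0.66 (adjusted p 0.0409). Of the other lists, stellate cell and matrix markers had 3 of 26 members higher at day 7 (Dcn, Timp1 and Vim), and amino acid and stress response genes had 3 of 28. Over all genes 3.51% were higher at day 7. Bile duct markers, muscle and adipose markers, exocrine pancreas markers and proteasome subunits had 0 called at every day, of 11, 16, 15 and 27 measured. As 3.51% of all genes were called higher and 1.53% lower at day 7, and fewer on other days, these counts lie near the share over all genes.

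Among the other named genes, several were called at day 1 or 3. Plac8, a small cysteine-rich protein of myeloid cells and epithelia, held 8.72, 9.09 and 9.09 in AA livers at day 1 against 7.47, 7.96 and 7.66 in vehicle livers, without overlap. Its change was 1.27 ± 0.25 at day 1 (adjusted p 6.55e-05) and 1.44 ± 0.21 at day 7 (adjusted p 5.19e-09), and the difference between days 14 and 7 was -1.21 ± 0.33 (adjusted p 0.0292). Rdh16, a retinol dehydrogenase, held 11.11, 10.84 and 11.53 in AA livers at day 3 against 9.01, 10.01 and 10.23 (lowest, median and highest) in vehicle livers, a change of 1.40 ± 0.29 (adjusted p 0.000195) that was called on no other day. Nampt, the rate-limiting enzyme of NAD salvage, changed by 1.14 ± 0.24 at day 3 and 0.96 ± 0.24 at day 7 (adjusted p 0.000327 and 0.000918). Gpam, the acyltransferase that starts triglyceride synthesis, rose on each day, by 0.78 ± 0.17, 1.27 ± 0.15, 0.91 ± 0.15 and 1.13 ± 0.17. Polg2, the accessory subunit of the mitochondrial DNA polymerase, held 7.37, 7.45 and 8.11 in AA livers at day 3 against 8.30, 8.54 and 9.18 (lowest, median and highest) in vehicle livers, a change of -1.03 ± 0.24 (adjusted p 0.00108). Lgals3bp, a secreted galectin-binding glycoprotein, held 9.35, 9.08 and 9.60 in AA livers at day 7 against 6.91 to 7.58 in vehicle livers, and changed by 1.02 ± 0.21, 2.17 ± 0.21 and 1.27 ± 0.24 at days 3, 7 and 14. Its step of 1.54 ± 0.32 between days 1 and 7 was called (adjusted p 0.000319), and that between days 7 and 14 was not (-0.90 ± 0.32, adjusted p 0.108).

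Some genes were called on most days. The 30 genes called in 1 direction on 3 or more days comprised 21 that were higher and 9 that were lower, and 9 and 5 of these passed on all 4 days. Besides the interferon genes they held Acadsb, a dehydrogenase of branched-chain acids, Hnf4a, the hepatocyte nuclear receptor, Ppp1r3b, the glycogen-targeting subunit of protein phosphatase 1, and Xiap, an inhibitor of caspases. Acadsb held 8.80, 9.41 and 8.79 in AA livers at day 1 against 7.19, 7.19 and 7.25 in vehicle livers, and 8.59, 8.39 and 8.46 at day 14 against 7.18, 7.75 and 7.01. Its change was 1.79 ± 0.27 at day 1 (adjusted p 1e-07), and its difference from day 1 to day 7 was not called (-0.71 ± 0.36, adjusted p 0.266). Hnf4a held 9.94, 10.07 and 9.89 in AA livers at day 1 against 8.60, 8.56 and 8.77 in vehicle livers, a change of 1.32 ± 0.16 (adjusted p 1.03e-10). Akap8l, a nuclear anchoring protein, held 8.57, 8.01 and 8.17 in AA livers at day 1 against 9.79, 9.53 and 9.41 in vehicle livers, and 7.56, 7.62 and 7.61 at day 7 against 7.87, 9.21 and 9.41 (lowest, median and highest). Its change was -1.33 ± 0.18 at day 1 (adjusted p 9.53e-10) and -1.37 ± 0.15 at day 7 (adjusted p 2.33e-14), and Ccnl2, a cyclin of splicing, changed by -1.02 ± 0.18 and -0.82 ± 0.16.

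The vehicle arrays of the 5 other CMC blocks, 68 in number, gave these genes a further reference. For all 30 genes their mean lay between the AA mean and the mean of the block's own 18 vehicle arrays. It was at least halfway to AA for 10 genes, among them Pnisr (91.9% of the way), Akap8l (88.9%), Ccnl2 (88.7%) and Zfp207 (87.4%). For Acadsb, Ppp1r3b, Hnf4a and Xiap it lay 44.0%, 36.5%, 34.5% and 24.4% of the way. For these 3 interferon genes it lay near the block's own vehicle arrays, at 0.196% of the way for Rsad2, 4.96% for Irf7 and 9.05% for Usp18. With the vehicle arrays of all CMC blocks as the reference, 14 of the 30 genes were still called on 3 or more days and 8 on no day. Hnf4a was then called on 2 days, and Acadsb, Ppp1r3b and Xiap on 3 days each. Of the genes called per day, 12 of 78 (15.4%), 33 of 80 (41.2%), 404 of 524 (77.1%) and 31 of 58 (53.4%) were called in the same direction at days 1, 3, 7 and 14. None of the 25 genes lower at day 1 was among them. For the genes at least halfway to AA, the vehicle arrays alone do not tell an effect of AA from a trait of the block's vehicle arrays. For genes that lay a smaller part of the way, how much of the change belongs to either was not tested. The direct test against Mcarb livers given below uses no vehicle arrays.

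**Figure D4:**
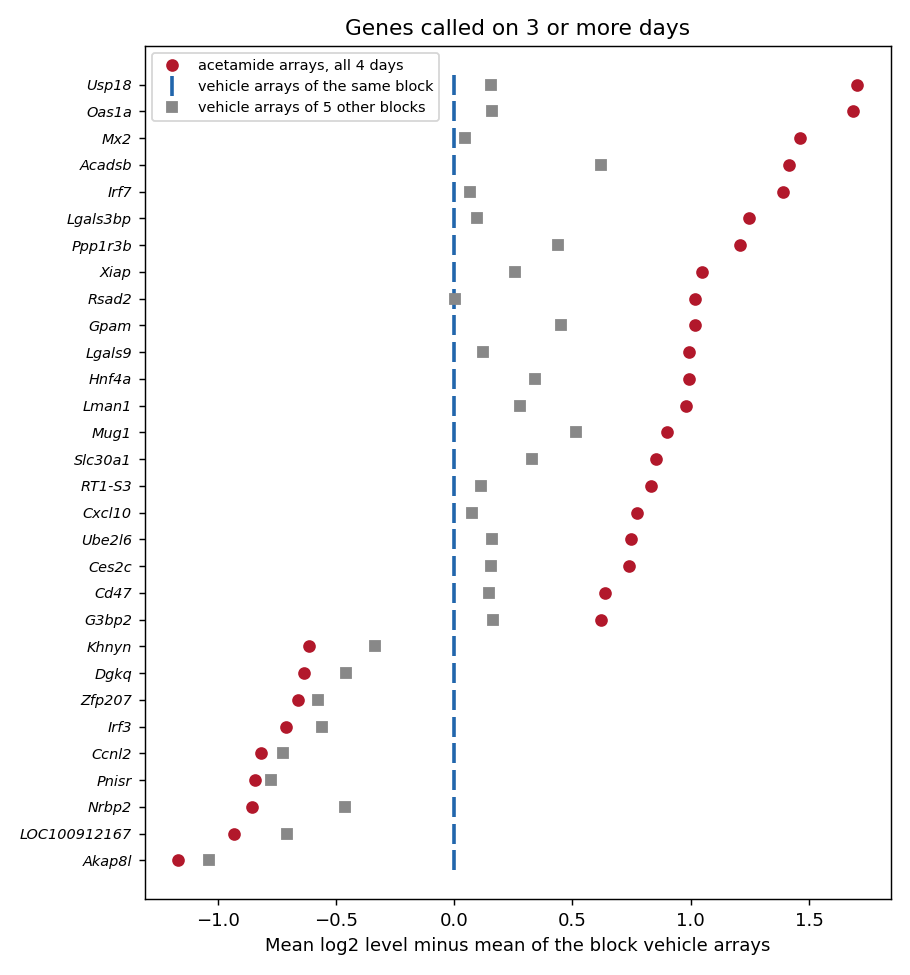
Mean log2 level of the 30 genes called on 3 or more days, as the difference from the mean of the block's 18 vehicle arrays, for the 12 AA arrays and for the 68 vehicle arrays of other CMC blocks. The other blocks lie near the AA mean for Pnisr, Akap8l and Ccnl2 and near 0 for Rsad2, Irf7 and Usp18.

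A pair of structurally related compounds were given in the same block, at other doses. Thioacetamide carries sulfur in place of the carbonyl oxygen of acetamide, and methylcarbamate has a further oxygen between the methyl group and the carbonyl carbon. In 4 direct tests, each adjusted over all probe sets, AA differed from Mcarb in 533 probe sets at day 7 (3.36%, with 219 genes higher, 2.1%, and 97 lower, 0.932%) and in 104 at day 14 (0.655%, with 21 genes higher, 0.202%, and 32 lower, 0.307%). AA differed from TAA in 395 probe sets at day 3 (2.49%, with 134 genes higher, 1.29%, and 158 lower, 1.52%) and in 475 at day 7 (2.99%, with 254 genes higher, 2.44%, and 77 lower, 0.74%). As the doses were 3000, 400 and 19.2 mg/kg, these tests compare the groups as dosed and not the molecules at one exposure. The 5 largest rises called over Mcarb at day 14 were those of Acadsb, Ppp1r3b, Hnf4a, Mug1 and Xiap. All of these were among the genes called on 3 or more days against vehicle. For Mug1 the vehicle arrays of other blocks lay 57.6% of the way to AA. The other genes at least halfway to AA were not among the 5 largest rises or falls, which does not show whether they were called in this test. What lies behind these differences was not tested.

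Type I interferon genes rose in both AA and Mcarb livers at day 7. Usp18 had changed by 2.17 ± 0.22 in AA livers and by 1.97 ± 0.22 in Mcarb livers at day 7, and the difference of 0.20 ± 0.26 was not called, with a 95% interval from -0.30 to 0.70. Oas1a had changed by 2.42 ± 0.29 and 2.44 ± 0.29, with an interval of the difference from -0.68 to 0.63. Of the 23 type I interferon genes, 12 rose with AA and 10 with Mcarb at day 7 (3.51% of all genes rose with AA and 0.442% with Mcarb). The direct test called 1 of the 23 apart, Mx2 (0.92 ± 0.33, adjusted p 0.0402). Over all genes that test called 2.1% higher and 0.932% lower, so 1 of 23 lies near that share. At day 14 the direct test called Mx1 lower in AA than in Mcarb livers, by -1.01 ± 0.18 (adjusted p 4.65e-05), and Cxcl10 too, by -0.90 ± 0.17 (adjusted p 7.58e-05), while Ifit1 was higher by 0.86 ± 0.24 (adjusted p 0.0161). RT1-Da and Cd74 were lower in AA than in Mcarb livers at day 14 by -1.03 ± 0.33 and -0.96 ± 0.29 (adjusted p 0.0388 and 0.0285).

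The cell cycle genes set the day 7 livers apart. Of the 44 measured, 32 were higher in AA than in Mcarb livers, and 33 were higher in AA than in TAA livers. Cdkn3 had changed by 3.24 ± 0.37 in AA livers, 0.10 ± 0.37 in Mcarb livers and -0.03 ± 0.37 in TAA livers, and the differences were 3.14 ± 0.43 (adjusted p 1.39e-09) and 3.28 ± 0.43 (adjusted p 1.82e-10). The counts on other days were as follows: at day 14, 11 of the cell cycle genes were called higher under Mcarb (0.634% of all genes were) and 0 under AA, and at day 3, 9 were called higher under TAA (1.23% of all genes were) and 0 under AA. Cdkn3 itself had changed by 1.60 ± 0.43 under Mcarb at day 14 (adjusted p 0.0213). The direct test of AA against Mcarb at day 14 called 1 of the 44 genes.

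Several genes of drug metabolism were called lower in AA than in TAA livers on both days, among them the glucuronosyltransferase Ugt2b7 (-2.03 ± 0.21 at day 3 and -1.42 ± 0.21 at day 7, adjusted p 4.91e-15 and 3.01e-08) and Akr7a3 (-1.57 ± 0.32 and -1.48 ± 0.32, adjusted p 6.38e-05 and 0.000187). Others were called apart at day 3 and not at day 7, and whether their difference itself changed between the days was not tested. Aldh1a1 had changed by -0.68 ± 0.40 in AA livers and by 2.60 ± 0.40 in TAA livers at day 3, a difference of -3.27 ± 0.47 (adjusted p 4.95e-09). At day 7 the changes were 2.86 ± 0.40 and 3.42 ± 0.40, and the difference of -0.56 ± 0.47 was not called, with a 95% interval from -1.48 to 0.36. Gsta3 gave -2.79 ± 0.51 at day 3 (adjusted p 6.6e-06) and -0.75 ± 0.51 at day 7 (adjusted p 0.37, interval from -1.76 to 0.25). Inmt was higher in AA than in TAA livers by 3.52 ± 0.51 at day 3 (adjusted p 6.24e-09), where TAA had changed it by -2.96 ± 0.44, and at day 7 the difference was 0.93 ± 0.51 (adjusted p 0.237). Interferon genes were called apart on both days, with 13 of the 23 type I genes higher in AA than in TAA livers at day 3 and at day 7, and Rsad2 called lower under TAA against vehicle on both days (-1.05 ± 0.26 and -1.04 ± 0.26, where 1.04% and 0.989% of all genes were lower).

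**Figure D5:**
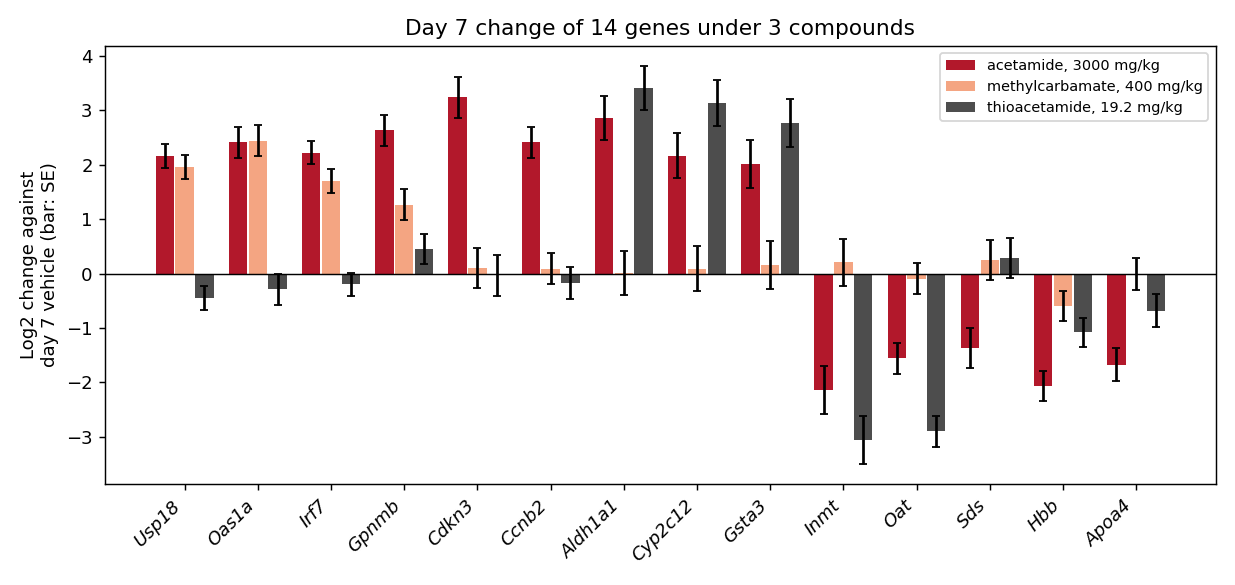
Log2 change at day 7 against the shared vehicle arrays for 14 genes under AA (3000 mg/kg), Mcarb (400 mg/kg) and TAA (19.2 mg/kg), with SE bars. The bars of Usp18 and Oas1a are of like height under AA and Mcarb, Cdkn3 and Ccnb2 stand out under AA alone among the 3, and Aldh1a1, Cyp2c12 and Gsta3 are high under AA and TAA.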

How the data were processed

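Liver RNA was hybridised to Affymetrix RAE230A arrays. The study profiled 3 treated rats per group, and the sources used do not state whether the 6 vehicle arrays of days 3 and 7 are separate rats, so p-values may in part measure technical spread. The authors converted scans with Microarray Suite 5.0 and deposited log2 values made with RMA (affy package), 15866 probe sets by 421 arrays (version not stated in the sources used). RMA shares normalization across arrays and compresses changes of dim probe sets. No read depth applies, and the number of arrays limits the precision. Probe sets were named through the platform annotation: 12783 had 1 symbol, 312 several and 2771 none listed. Each of 10411 genes was represented by its probe set of highest mean.

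limma 3.58.1 in R 4.3.3 fitted 1 mean for each of 136 groups over all 421 arrays, with 285 residual and 4.67 prior degrees of freedom. Calls needed a Benjamini-Hochberg adjusted p under 0.05 and a 1.5-fold change. The fit was tested on simulated data. Named genes were, per day, the 10 largest rises and falls among called genes whose arrays did not overlap, per difference the 5 largest each way, genes called on 3 or more days, and list members. Members and lists were chosen with earlier results of these data known. Values were handled with Python 3.11.15, pandas 2.3.3 and numpy 2.4.6, and drawn with matplotlib 3.10.9. Promoter sequences are RefSeq's (GRCr8). Same-numbered arrays of AA and vehicle did not deviate together (correlations -0.14 to 0.204, over 0.1 in 3 of 12 pairs). Alternatives were quantile normalization, a fit of the compared groups only, a filter at a mean of 6, a replicate block, subsets or averages of vehicle arrays, vehicle arrays of all CMC blocks, a 2-fold limit and leaving out single arrays.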

Additional observations from a re-analysis of the deposited data

Results flagged for a closer look

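A single array stood far from the rest of its group in 5 of 134 group and measure combinations tested by Dixon's criterion, which chance alone flags in about 1 of 20. All 5 lay in the vehicle groups of 6 arrays at days 3 and 7. The AA groups held 3 arrays each, so the lack of a flag there does not show that no AA array stood apart. Vehicle array 5 at day 3 had the highest mean level of lymphocyte and neutrophil markers, 6.30, vehicle array 2 at day 7 that of the amino acid and stress response list, 8.22, and vehicle array 6 at day 7 that of preneoplastic liver markers, 7.61. Vehicle array 4 at day 7 was the highest of its group in Hnf4a (9.39) and the lowest in Akap8l (7.87), in both cases on the side of the AA livers. Among the 18 vehicle arrays of the block it was also the highest in Slc30a1, Acadsb, Gpam, Ppp1r3b and Mug1. It was the lowest in Irf3, Pnisr, Dgkq, Zfp207, LOC100912167 and Ccnl2. These too are genes called on 3 or more days, with AA livers on the same side. In the rest of the 30 such genes it was not the vehicle array nearest to the AA livers. The effect of AA differed between days in 888 probe sets, with 407 for day 7 minus day 1, 156 for day 14 minus day 7 and 1 for day 14 minus day 1. AA differed from Mcarb in 533 probe sets at day 7 and 104 at day 14, and from TAA in 395 at day 3 and 475 at day 7.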

How the results depend on the processing

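The counts of called probe sets kept within 1.5 times of those reported under quantile normalization and the filter at a mean of 6 in every comparison. Vehicle arrays of all CMC blocks gave 35 at day 1, 77 at day 3, 12 for day 14 minus day 1 and 1436 for any difference between days. The fit of the compared groups only gave 73 for day 14 minus day 7 and 0 for day 14 minus day 1. Vehicle arrays 1 to 3 alone gave 97 for day 14 minus day 7 and 543 for any difference, and neighbouring vehicle arrays averaged, chosen after seeing the data, gave 89 and 465. The replicate block gave 536 for any difference between days; it also gave 5 in place of 1 macrophage markers higher at day 3 and lost the calls of Socs2 at day 7 and Rcan2 at day 3, while no other count moved by over 1.5 times, and 4 of 12 arrays correlated best with their own number. A 2-fold limit left 32, 52, 215 and 28 at days 1, 3, 7 and 14, 136 and 59 for the steps to day 7 and to day 14, 128 and 15 against Mcarb at days 7 and 14, and 99 and 134 against TAA at days 3 and 7.

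Leaving out single arrays gave 157 to 194, 153 to 214, 687 to 1044 and 85 to 146 at days 1, 3, 7 and 14, 251 to 652 for day 7 minus day 1, 34 to 379 for day 14 minus day 7, 0 to 2 for day 14 minus day 1, 370 to 1245 for any difference between days, 434 to 736 and 82 to 165 against Mcarb, and 318 to 453 and 407 to 648 against TAA. The arrays that moved a count by over 1.5 times were the 3 AA arrays of day 7, the 3 of day 14 (244, 78 and 65 for day 14 minus day 7), vehicle day 14 array 1 (96) and Mcarb day 14 array 2 (165 against Mcarb at day 14), besides those that moved the single call for day 14 minus day 1. Of the 600 values of named genes with an array left out, 52 lost their call and 0 changed sign; against all CMC vehicle arrays 25 of 80 lost it. The cause of these shifts was not tested.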
